A study of Saccharomyces cerevisiae with 4 samples.

Results

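The 7 genes described here encode the subunits of the APT (associated with Pta1) complex of the budding yeast Saccharomyces cerevisiae: SYC1 (YOR179C), PTA1 (YAL043C), REF2 (YDR195W), PTI1 (YGR156W), SWD2 (YKL018W), GLC7 (YER133W) and SSU72 (YNL222W). They were chosen by gene identifier, as the subunits of the purified complex, and no measured value entered the rule. The choice was made with earlier results of these data known. All 7 were among the 4970 regions of the count table, and all 7 passed the filter on low counts and are among the 4845 genes tested.

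RNA synthesis was measured by 4tU-seq, in which RNA made during a brief pulse of 4-thiouracil is purified by its thiol label and sequenced. Strain BY4741 carrying syc1::kanMX (Δsyc1, 2 libraries) was compared with wild-type BY4741 (2 libraries). The strain is haploid and of mating type a, and the deletion replaces SYC1 by a drug resistance cassette. In both groups YPD cultures at 30 °C were harvested at OD600 0.8 after a 6 min pulse with 4-thiouracil (5 mM), and the replicates of a strain are biological. The number of independent Δsyc1 clones is not given in the sources used here.

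Counts over annotated regions came to 26089573 and 22880058 in Δsyc1, against 36175417 and 35203133 in wild-type. The marker genes that BY4741 lacks, LEU2, URA3 and MET17, were at 0 counts in every library, a result that would still permit 3 counts, or at most 0.14 CPM, per library. HIS3 was not analysed here. STE2, the receptor of a cells, had a mean of 299.5 CPM in Δsyc1 and 729 CPM in wild-type. Other genes specific to a cells, with Δsyc1 first, were BAR1 (275.8 and 526.7 CPM) and MFA2 (91.1 and 252.3 CPM). MFA1 (62.7 and 87.3 CPM) and AGA2 (5.97 and 24.4 CPM) were lower than SAG1, a gene specific to α cells, in both groups. Of the 5 genes specific to a cells, 4 were called down in Δsyc1, beside 8.15% of all genes tested. Of the 3 genes specific to α cells that were counted, the α-factor gene MF(ALPHA)1 gave 1 and 0 counts in Δsyc1 and 5 and 5 counts in wild-type. STE3 averaged 3.79 CPM in Δsyc1 and 2.86 CPM in wild-type and SAG1 93.9 CPM in Δsyc1 and 88.9 CPM in wild-type, and neither was called. CPM (counts-per-million) values are scaled by TMM (trimmed mean of M-values) factors, and a spike-in is not given in the sources used here, so all levels are relative to the other RNAs of a library. In these bulk cultures, fewer cells making an RNA and less RNA made per cell cannot be told apart.

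APT shares its subunits other than Syc1 with the cleavage and polyadenylation factor CPF, where they form the phosphatase module beside a nuclease and a polymerase module. Pta1 is the scaffold on which the complex is built. Glc7 and Ssu72 are protein phosphatases that act on the phosphorylated tail of RNA polymerase II, its C-terminal domain or CTD, during transcription and termination. The name of Syc1 records its similarity to the C-terminal part of Ysh1, the CPF endonuclease. The comparison of Δsyc1 with wild-type asks how RNA synthesis responds when this subunit is missing, and for these genes it shows whether synthesis of the partner mRNAs differed.

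The kinship of SYC1 and YSH1 is visible in the coding sequences. A local alignment of the RefSeq coding sequences (R64, the assembly of sacCer3) ran from base 1 to base 567 of SYC1, its whole length, and from base 1799 to base 2340, the end, of YSH1. Of 517 aligned base pairs, 320 (61.9%) were identical. The gap-free stretch of 60 bases with the most identical bases (41) is shown, with identical bases in capitals, because it is the part where reads of the genes would be most alike. It lies on the minus strand at chrXV:671917-671976 in SYC1 and at chrXII:697228-697287 in YSH1.

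SYC1: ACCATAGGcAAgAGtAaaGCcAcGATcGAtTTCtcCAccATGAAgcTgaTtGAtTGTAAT

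YSH1: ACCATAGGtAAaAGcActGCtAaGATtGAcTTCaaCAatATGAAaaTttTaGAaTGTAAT

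The longest exact run shared by both coding sequences was 10 bases, well short of a 50-base read. None of the 797 windows of 50 bases in the counted SYC1 region occurred elsewhere in the genome, and the count of such repeated windows was likewise 0 in each of the other members.

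The deleted gene was read first, as a check of the labels. Over SYC1, which occupies 671595 to 672440 on the minus strand of chromosome XV (sacCer3), 1 and 2 counts were found in Δsyc1, against 743 and 794 counts in wild-type. The groups did not overlap. With 3 counts in Δsyc1 and 1537 in wild-type, and after scaling, the gene stood at 0.00316 of its wild-type level (95% interval, exact and for counting error only, 0.000651 to 0.00925). By edgeR the difference was −8.22 ± 0.25 on the log2 scale (SE, adjusted p 2.18e-07), a value set in part by the prior count of the model. In wild-type the labelled RNA of SYC1 per length was the lowest of the 7 genes. It stood at 24.2 ± 1.40 CPM per kb of counted region (SD, n = 2), where 15.95% of the genes tested lay lower.

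Of the partner genes, REF2 and PTI1 rose in Δsyc1, by 2.39-fold and 1.68-fold, and PTA1, SWD2, GLC7 and SSU72 were not called, with fold changes between 0.871 and 0.962. Calls required both an edgeR adjusted p below 0.1 and a change of more than 1.5-fold. With 2 of the 7 members called up and 1, SYC1, called down, the background was 9.08% of all genes tested called up and 8.15% called down. Among all calls, 52.7% were up, and this share was 32.0% without normalization factors, 41.6% with upper-quartile factors and 64.3% in DESeq2 against a fold change of 1.5. A correction for length gave 488 genes up and 272 down. REF2 and PTI1 were called up under each of these settings, except PTI1 in DESeq2 against a fold change of 1.5. In DESeq2 against no change PTI1 was called up as well.

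**Figure D1:**
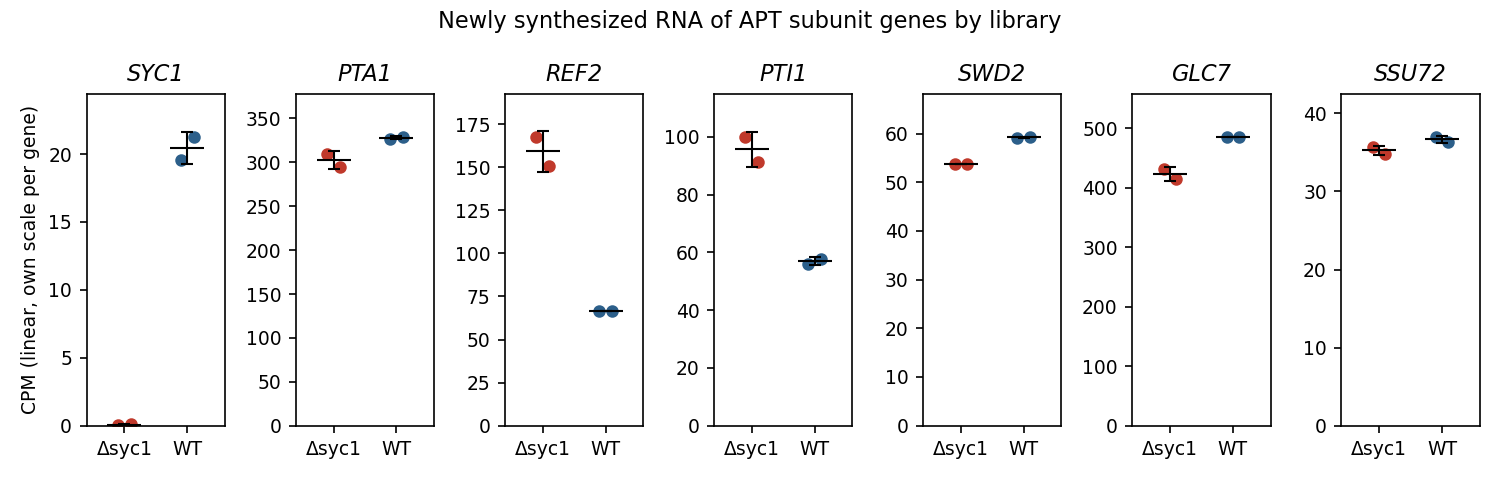
Levels of the 7 APT subunit genes in CPM (linear axis from 0, a scale of its own for each gene), with Δsyc1 left of wild-type (WT). Points are libraries, and horizontal marks with bars are the mean ± SD of 2 libraries. REF2 and PTI1 lie higher in both Δsyc1 libraries than in both wild-type libraries, SYC1 lies near 0 in Δsyc1, and the other members lie slightly lower in Δsyc1.

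REF2 encodes an RNA-binding subunit that helps to hold the phosphatase Glc7 in the complex. REF2 (chromosome IV, 848361 to 850284, plus strand) had 4208 and 3232 counts in Δsyc1 and 2524 and 2493 counts in wild-type, although the Δsyc1 libraries were the smaller ones. Scaled to library size this was 168 and 151 CPM in Δsyc1 and 66.6 and 66.8 CPM in wild-type. Both Δsyc1 libraries lay above both wild-type libraries, and the gap exceeded the spread within either group. The log2 fold change was 1.26 ± 0.07 (SE, edgeR adjusted p 1.6e-06), the 118th highest of 4845 genes. It lay between 1.18 and 1.33 when each library in turn was left out.

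The counted REF2 region begins 238 bases before the coding sequence, the longest such leader among the members, where the others had between 22 (PTA1) and 133 (PTI1) bases. Its last 101 bases, 5.25% of the region, overlap CAB5 on the other strand, and whether the counting used strand is not given in the sources used here. CAB5, a gene of coenzyme A synthesis, had a mean of 38.3 CPM in Δsyc1 and 43.8 CPM in wild-type (log2 fold change −0.20 ± 0.07, edgeR adjusted p 0.0291), so the overlapping gene was slightly lower in Δsyc1 and was not called. MSS116, a mitochondrial RNA helicase gene on the other side that is transcribed away from REF2, did not pass the test (−0.07 ± 0.05, adjusted p 0.268). REF2 was thus the 1 gene of this trio that was called.

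PTI1 encodes a subunit that binds Pta1. PTI1 (chromosome VII, 800413 to 801876, plus strand) had 2508 and 1957 counts in Δsyc1 and 2120 and 2159 counts in wild-type. In CPM this was 100.0 and 91.4 in Δsyc1 and 55.9 and 57.8 in wild-type, and the groups did not overlap. The log2 fold change was 0.75 ± 0.06 (SE, edgeR adjusted p 2.81e-05), the 299th highest of all genes tested. The change was close to the fold change minimum, and DESeq2 run against a fold change of 1.5 did not call PTI1 (adjusted p 0.481), whereas that test kept REF2.

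The chromosomal neighbours of PTI1 rose with it. CYS4, the gene of cystathionine β-synthase in the synthesis of cysteine from homocysteine, ends 206 bases before PTI1 on the same strand, and CHO2, the gene of a phosphatidylethanolamine methyltransferase that uses S-adenosylmethionine, starts 311 bases after it, also on the same strand. CYS4 had a mean of 4060 CPM in Δsyc1 and 2040 CPM in wild-type (log2 fold change 0.99 ± 0.07, edgeR adjusted p 1.2e-05). CHO2 had a mean of 2001 CPM in Δsyc1 and 1031 CPM in wild-type (0.96 ± 0.08, adjusted p 3.2e-05). All 3 genes in this row were therefore called up, with log2 fold changes of 0.99 and 0.96 in the flanking genes and 0.75 in PTI1.

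Per length, the level of labelled RNA was far lower for PTI1 than for its neighbours. CYS4 had a mean of 2390 CPM per kb in Δsyc1 and 1201 CPM per kb in wild-type, against 65.4 CPM per kb in Δsyc1 and 38.9 CPM per kb in wild-type for PTI1. PTI1 counts amounted to 2.43% and 2.28% of CYS4 counts in Δsyc1, against 2.66% and 2.92% in wild-type. The share was lower in both Δsyc1 libraries, a difference for which no test was run. The part of transcription from CYS4 in the rise of PTI1 was not tested.

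**Figure D2:**
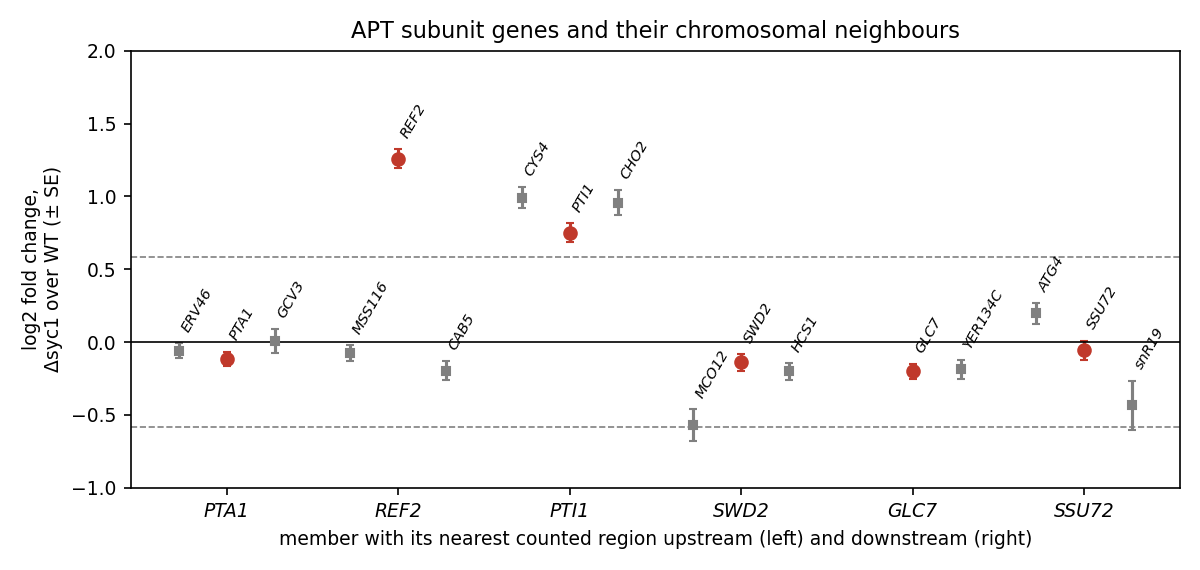
Log2 fold change of Δsyc1 over wild-type (± SE, edgeR) for 6 members (red circles) with the nearest counted region upstream (grey square, left) and downstream (grey square, right) of each on its chromosome. Dashed lines mark a fold change of 1.5. PTI1 lies between CYS4 and CHO2, which also rose, while REF2 lies between genes near 0. The upstream region of GLC7, snR52, had 0 counts and is not drawn.

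The other members had neighbours that were not called. On either side of PTA1 were ERV46 (log2 fold change −0.06) and GCV3 (0.01), and next to SWD2 were MCO12 (−0.57 ± 0.11, edgeR adjusted p 0.00217, just under the fold change minimum) and HCS1 (−0.20), which overlaps SWD2 by 138 bases on the other strand. SSU72 lies between ATG4 (0.20) and snR19, the U1 small nuclear RNA (−0.43 ± 0.17, adjusted p 0.0528), which ends 140 bases away on the opposite strand. Downstream of GLC7, YER134C had a log2 fold change of −0.19, and its upstream region, snR52, had 0 counts. Beside SYC1, DCI1 had a log2 fold change of −0.09 and HEM15, 7880 bases away, 0.12. GAC1, the gene that lies next to SYC1 on its other side, was not analysed here.

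The 200 bases before the start of the counted regions of REF2 (chrIV:848161-848360) and PTI1 (chrVII:800213-800412), both on the plus strand, are shown because these are the partner genes that rose. Sequences are from RefSeq R64, and capitals mark the longest run the windows share, 8 bases that stand on opposite strands.

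REF2: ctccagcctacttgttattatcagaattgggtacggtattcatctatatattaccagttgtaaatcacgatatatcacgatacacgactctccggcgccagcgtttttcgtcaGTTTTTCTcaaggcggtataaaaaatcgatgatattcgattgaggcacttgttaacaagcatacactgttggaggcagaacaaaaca

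PTI1: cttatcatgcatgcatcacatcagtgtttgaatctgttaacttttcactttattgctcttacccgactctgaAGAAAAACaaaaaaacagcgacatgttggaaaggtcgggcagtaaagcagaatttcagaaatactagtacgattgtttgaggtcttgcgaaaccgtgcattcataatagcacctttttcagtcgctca

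The run GTTTTTCT was present on either strand in the windows of 171 of 4909 mRNA genes (3.48%), SYC1 among them. The binding motifs of factors of sulfur, amino acid and stress gene control were searched on both strands in the same windows: CACGTG (Cbf1), TGACTC (Gcn4), TGTGGC (the core of the Met31 and Met32 motif) and AGGGG (the stress element of Msn2 and Msn4). They were present in 3.12%, 5.40%, 5.03% and 16.1% of all windows. The windows of REF2 and PTI1 held 0 matches, and among the 7 members the 1 match was AGGGG before GLC7. The windows before CYS4 and CHO2, the neighbours of PTI1 that were called up, also held 0 matches. Control of any of these genes by the factors was not tested.

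The phosphatase genes GLC7 and SSU72 were not called. Glc7 is the catalytic subunit of protein phosphatase 1, which acts in many complexes besides APT and CPF. GLC7 (chromosome V, 432427 to 434396, plus strand) had 431 and 414 CPM in Δsyc1 and 486 and 485 CPM in wild-type. Both Δsyc1 libraries lay lower, and the difference was −0.20 ± 0.05 on the log2 scale (SE, adjusted p 0.00871 by edgeR), under the fold change minimum. The counted region holds an intron of 525 bases (432672 to 433196), 26.6% of its length, so reads from unspliced GLC7 RNA can be counted as well.

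Ssu72 dephosphorylates the CTD and is needed for termination at many small RNA genes. SSU72 (chromosome XIV, 229063 to 229890, plus strand) had 35.7 and 34.9 CPM in Δsyc1 and 37.0 and 36.4 CPM in wild-type. The Δsyc1 libraries lay lower by little more than the spread within a group, and the log2 fold change of −0.06 ± 0.07 did not pass the test (edgeR adjusted p 0.480). Its sign turned with a correction for region length (0.11), so no direction can be given.

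PTA1 (chromosome I, 58620 to 61074, minus strand) had 310 and 295 CPM in Δsyc1 and 327 and 329 CPM in wild-type. The difference was −0.12 ± 0.05 on the log2 scale (SE, edgeR adjusted p 0.0773). SWD2, which encodes a WD-repeat protein that also belongs to the histone methyltransferase complex Set1C, had 53.8 and 53.7 CPM in Δsyc1 and 59.1 and 59.3 CPM in wild-type (chromosome XI, 404073 to 405217, plus strand). The SWD2 log2 fold change was −0.14 ± 0.06 (adjusted p 0.0633). For both genes the groups did not overlap, but the differences were well under the fold change minimum.

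Without that minimum, 4 members (SYC1, GLC7, SWD2 and PTA1) passed an adjusted p under 0.1 as lower and 2 (REF2 and PTI1) as higher, where 35.5% of all genes passed as lower and 33.5% as higher. Likewise 5 members (SYC1, PTA1, SWD2, GLC7 and SSU72) had both Δsyc1 libraries below both wild-type libraries, against 43.2% of all genes. The other 2 (REF2 and PTI1) had both above, against 40.5%. Small differences of this kind were therefore common in the whole table. The place of SYC1 in both counts was fixed by its deletion. In DESeq2 against no change, PTA1 (adjusted p 0.175) and SWD2 (adjusted p 0.218) did not pass, and over all alternatives PTA1 missed this p threshold in 7 of 14 and SWD2 in 9 of 14. The median log2 fold change was −0.12 over the 7 members and −0.09 over the 6 partners of Syc1, beside −0.02 over all genes tested.

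Levels per length were compared next, as CPM per kb of counted region, since longer regions collect more counts. In Δsyc1 the order was GLC7 (215 ± 5.95), PTA1 (123 ± 4.21), REF2 (82.8 ± 6.15), PTI1 (65.4 ± 4.12), SWD2 (46.9 ± 0.03) and SSU72 (42.6 ± 0.70), with SYC1 at 0.0788 ± 0.0448 (SD, n = 2). In wild-type it was GLC7 (246 ± 0.25), PTA1 (133.5 ± 0.71), SWD2 (51.7 ± 0.15), SSU72 (44.3 ± 0.55), PTI1 (38.9 ± 0.93), REF2 (34.7 ± 0.08) and SYC1 (24.2 ± 1.40). REF2, the lowest of the partners in wild-type, thus lay above PTI1, SWD2 and SSU72 in Δsyc1, and PTI1 lay above SWD2 and SSU72. No neighbours in either order overlapped in their libraries.

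Set against all genes tested, the level of REF2 per kb exceeded that of 60.2% of genes in Δsyc1 and 25.7% in wild-type. PTI1 exceeded 50.2% of genes in Δsyc1 and 29.4% in wild-type. The labelled RNA of GLC7 per kb was high in both groups, above 88.5% of genes in Δsyc1 and 92.5% in wild-type. The median gene had 64.7 CPM per kb in Δsyc1 and 65.1 CPM per kb in wild-type.

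**Figure D3:**
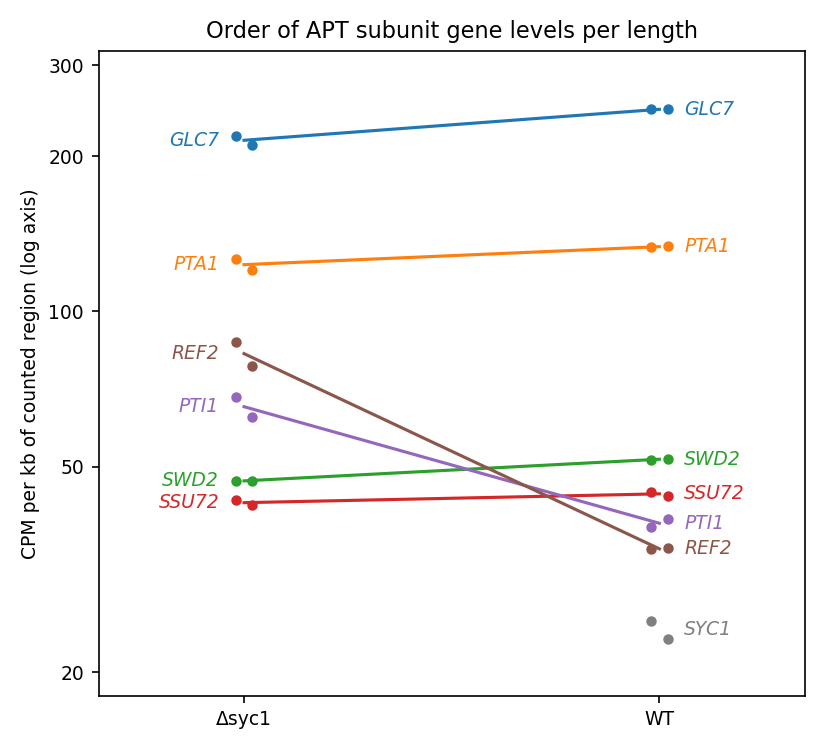
Level per length of the APT subunit genes, in CPM per kb of counted region on a log axis, in Δsyc1 (left) and wild-type (WT, right). Points are libraries, and lines join the means of 2 libraries. REF2 and PTI1 lie above SWD2 and SSU72 in Δsyc1 and below them in wild-type, and SYC1 in Δsyc1 is below the axis.

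Because the subunits work in a complex, each member was also set against the scaffold gene PTA1 within each library, a ratio that does not depend on library scaling. The ratios carry no correction for a trend with region length. With that correction the log2 fold change was −0.229 for PTA1, 1.191 for REF2 and 0.753 for PTI1. It was −0.055 for SWD2, −0.271 for GLC7 and 0.113 for SSU72. REF2 reached 0.691 and 0.653 of the PTA1 level per length in Δsyc1 and 0.260 and 0.259 in wild-type, a 2.59-fold difference of the means. PTI1 reached 0.541 and 0.519 in Δsyc1 and 0.287 and 0.295 in wild-type, a 1.82-fold difference. Without a length correction, the ratios of GLC7 (1.73 and 1.75 in Δsyc1, 1.85 and 1.84 in wild-type) and SSU72 (0.341 and 0.350 in Δsyc1, 0.336 and 0.328 in wild-type) differed by under 1.1-fold. SWD2 ratios overlapped between the groups, with 0.372 and 0.390 in Δsyc1 and 0.388 and 0.387 in wild-type.

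For REF2, PTI1, GLC7, SSU72 and SYC1 the exact two-sided permutation test of the ratio gave p = 0.333, the smallest p that 2 against 2 libraries allow, and for SWD2 it gave p = 1.00 (6 ratios, adjusted p 0.400 and 1.00). The design therefore cannot take these ratios past a threshold of 0.05. The difference for REF2 was far wider than the spread of its ratio within Δsyc1 (SD 0.0270) and within wild-type (SD 0.000765).

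The remaining CPF subunits were compared with the members that they meet in CPF. None of the 8 genes of the nuclease and polymerase modules was called in either direction by edgeR, with log2 fold changes between −0.37 and 0.32 and a median of −0.07. Over all genes tested, edgeR called 9.08% up and 8.15% down, shares at which few of 8 genes would be called. DESeq2 likewise called 0 of the 8, where against no change it called 452 of all 4845 genes up and 371 down. At an unadjusted edgeR p under 0.05 with any fold, 1 of the 8 was higher and 2 were lower. By that measure 32.3% of all genes tested were higher and 33.9% lower. YSH1, the gene of the endonuclease that resembles Syc1, had a mean of 198 CPM in Δsyc1 and 214 CPM in wild-type (−0.11 ± 0.06, edgeR adjusted p 0.119). CFT1, the largest subunit of the polymerase module, had 595 CPM in Δsyc1 and 478 CPM in wild-type (0.32 ± 0.06, adjusted p 0.00133). PFS2, a scaffold of the same module, had 78.4 CPM in Δsyc1 and 101 CPM in wild-type (−0.37 ± 0.06, adjusted p 0.00109).

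**Figure D4:**
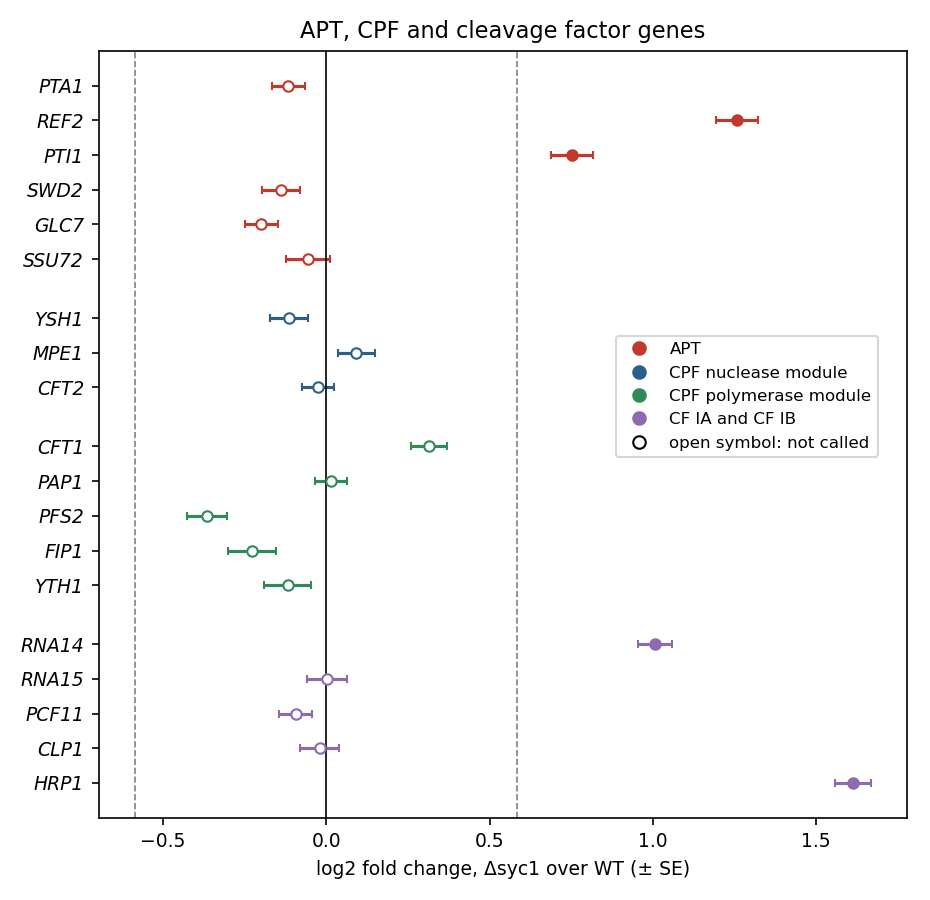
Log2 fold change of Δsyc1 over wild-type (± SE, edgeR) for 6 APT members and for genes of the CPF nuclease and polymerase modules and of the cleavage factors CF IA and CF IB. Filled symbols were called, open symbols were not, and dashed lines mark a fold change of 1.5. REF2, PTI1, RNA14 and HRP1 were called up, and SYC1 (−8.22) is not drawn.

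Summed over genes, the 6 partners of Syc1 had 1098 and 1041 CPM in Δsyc1 and 1031 and 1035 CPM in wild-type. Most of this came from GLC7 (means of 422.8 CPM in Δsyc1 and 485.5 CPM in wild-type) and PTA1 (302.5 and 327.8 CPM). The partner sum therefore says little about REF2 and PTI1. The 8 nuclease and polymerase module genes had 1589 and 1600 CPM in Δsyc1 and 1546 and 1511 CPM in wild-type. The sums differed by under 1.1-fold. No test of these sums was run.

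Cleavage factors CF IA and CF IB act with CPF at mRNA 3′ ends. Of their 5 genes, 2 were called up and 0 down by edgeR and by DESeq2, and the median log2 fold change was 0.00. The split was the same at an unadjusted edgeR p under 0.05. Over all genes tested, edgeR called 9.08% up and 8.15% down, and 32.3% were higher and 33.9% lower at that unadjusted p. HRP1, the gene of the RNA-binding protein that forms CF IB, had a mean of 560 CPM in Δsyc1 and 183 CPM in wild-type (1.61 ± 0.05, edgeR adjusted p 2.4e-07). RNA14, a CF IA scaffold gene, had 324 CPM in Δsyc1 and 161 CPM in wild-type (1.01 ± 0.05, adjusted p 1.45e-06). HRP1 overlaps a region on the other strand by 22 bases, and RNA14 overlaps none. RNA15, CLP1 and PCF11 lay between −0.09 and 0.00. NRD1 (−0.18) and NAB3 (−0.12), genes of the factors that end transcription of small RNAs, were not called by edgeR or DESeq2, 1 of them being lower at an unadjusted edgeR p under 0.05, and SEN1 was not analysed here.

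Subunits that SWD2 and GLC7 work with outside APT were read as well. Of the 7 other Set1C genes, 2 were called down and 0 up by edgeR, with a median of −0.30. Over all genes tested, edgeR called 8.15% down and 9.08% up. DESeq2 called 1 of the 7 down and 0 up, where against no change it called 371 of all 4845 genes down and 452 up. At an unadjusted edgeR p under 0.05, 5 of the 7 were lower and 1 was higher, beside 33.9% of all genes lower and 32.3% higher. The edgeR calls were SHG1 (10.4 CPM in Δsyc1 and 20.9 CPM in wild-type, fold change 0.498, edgeR adjusted p 6.48e-05) and BRE2 (50.5 CPM in Δsyc1 and 76.0 CPM in wild-type, −0.59 ± 0.06, adjusted p 0.0001). BRE2 lay just past the fold change minimum (fold change 0.6655). SET1 itself, the methyltransferase, had a log2 fold change of 0.28. BRE2 overlaps a region on the other strand by 215 bases and SHG1 by 83 bases. SWD3 and SDC1, which were lower but not called, overlap such regions by 1002 bases (95.4% of SWD3) and 78 bases.

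Of 18 genes for regulatory subunits of Glc7, 17 were counted, of which 4 were called up and 0 down by edgeR, with a median of 0.22. Over all genes tested, edgeR called 9.08% up and 8.15% down. DESeq2 also called 4 of the 17 up and 0 down, where it called 452 of all 4845 genes up and 371 down. Against a fold change of 1.5, DESeq2 called 1 of the 17 up and 0 down, where 229 of all genes were up and 127 down. At an unadjusted edgeR p under 0.05, 10 of the 17 were higher and 2 lower, beside 32.3% of all genes higher and 33.9% lower. The edgeR calls were GIP1, which acts in sporulation (1.09 ± 0.06, edgeR adjusted p 2.81e-06), REG2, a relative of the glucose repression subunit Reg1 (1.04 ± 0.16, adjusted p 0.000768), and GIP2 and PIG2, relatives of the glycogen-targeting subunit Gac1 (0.74 ± 0.13 and 0.72 ± 0.05). PIG2 overlaps a region on the other strand by 37 bases. REG2 had 353 and 216 counts in Δsyc1 and 213 and 232 counts in wild-type, and its Δsyc1 libraries differed more than those of the other 3. The 6 genes of other CTD kinases and phosphatases held 0 calls by edgeR and by DESeq2, with log2 fold changes between −0.50 (KIN28) and 0.05 (SSN3). The shares of all genes called by edgeR, 9.08% up and 8.15% down, apply here as well. At an unadjusted edgeR p under 0.05, 3 of these 6 were lower and 0 higher, beside 33.9% of all genes lower and 32.3% higher.

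The genes whose pattern over the 4 libraries was most like that of each member were listed by the Euclidean distance of log2 CPM centred on its mean. Nearest to REF2 were USV1, a stress-related zinc finger gene (distance 0.0114), PIC2, a mitochondrial carrier gene (0.0524), and FMO1 (0.0719). Nearest to PTI1 were HXT6, a hexose transporter gene (0.0330), HSP42, a small heat shock protein gene (0.0352), and YAP1, an oxidative stress regulator gene (0.0536). All 6 were called up. HXT6 has a near-identical copy, HXT7, so its counts are uncertain. With 4 libraries in 2 groups such a distance mostly records a like difference between the groups.

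Nearest to PTA1 were RCO1, GTR2 and RMT2 (distances 0.0077 to 0.0160), to SWD2 VPS501, ECM32 and PIH1 (0.0116 to 0.0153), to GLC7 SDS23, RAD17 and PRE4 (0.0148 to 0.0197), and to SSU72 PGS1, YLH47 and ORC4 (0.0100 to 0.0150). None of these 12 genes was called. The deleted SYC1 had no close match, and the smallest distance, to YNL276C, was 4.29.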

How the data were processed

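Per the paper's methods and the deposited labels, the authors aligned paired-end reads to sacCer3 with STAR 2.3.0, kept properly paired, well-mapped reads with SAMtools, and counted reads per region with HTSeq, giving raw counts in which mRNA borders came from transcript isoform sequencing. The strand setting is not given in the sources used here. All 4 count columns matched a sample and 0 did not. Region starts and ends are those the authors deposited. A further table holds the authors' own comparison (mean counts, fold changes, standard errors, scores and p-values) and was not used.

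A quasi-likelihood model with the strain as its single term was fitted in edgeR 4.0.16 (R 4.3.3) to TMM-normalized libraries. It covered the 4845 of 4970 regions whose mean, after scaling with size factors of DESeq2 1.42.0, reached 30 counts in Δsyc1 or wild-type. Benjamini-Hochberg adjustment ran over these 4845 genes. A call required adjusted p below 0.1 together with more than a 1.5-fold difference. The SE of a log2 fold change is its size over the square root of F. The edgeR step was tested on simulated data. Replicates differed by more than counting noise (chi-square per degree of freedom 20.4 for Δsyc1 and 10.9 for wild-type). All 16 chromosome names matched R64, and 0 regions ran past a chromosome end. Symbols came from RefSeq. Permutation tests used scipy 1.17.1, and plots matplotlib 3.10.9 (Python 3.11.15).

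The genes named are the 7 members, other CPF subunits, called genes of the lists, the nearest counted region on each side of a member, the 3 nearest patterns, and strain markers. Members and lists were chosen with earlier results of these data known. The motif search, the shared run, the SYC1 and YSH1 alignment and the sums over modules were added after the data were seen. Alternatives covered scaling, the low-count filter, DESeq2, the fold change minimum, a replicate block, a length correction (per-library lowess on log2 region length) and leaving out each library.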

Additional observations from a re-analysis of the deposited data

How the results depend on the processing

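SYC1, REF2, PTI1, GLC7, PTA1 and SWD2 kept their direction in every alternative run, and SSU72 changed sign with the length correction, to 0.113 both without and with a replicate block. Of 98 member values, 95 kept their direction and their call, which needs both the p and the fold change threshold. Taken alone, the adjusted p lay on the other side of 0.1 in 19 of the 98, of which 9 were of SWD2, 7 of PTA1 and 1 each of GLC7, PTI1 and SSU72. PTI1 lost its call in DESeq2 against a fold change of 1.5 (0.76, adjusted p 0.481), where 1 member was called up (REF2) and 1 down (SYC1), and 229 genes were called up and 127 down in all. With no fold change minimum, 4 members were called down, 1 CPF nuclease or polymerase module gene was up and 2 were down, and all genes gave 1623 up and 1719 down. Without normalization factors the median of all genes moved to −0.17, 655 genes were down, and REF2 (1.11) and PTI1 (0.60) remained called.

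Libraries left out in turn gave ranges of −8.88 to −7.72 for SYC1, 1.18 to 1.33 for REF2 and 0.68 to 0.81 for PTI1, with the same calls each time. Log2 ratios to PTA1 ran from −8.92 to −7.62 for SYC1, 1.33 to 1.41 for REF2 and −0.057 to 0.011 for SWD2. Such fits leave 1 library in an arm, which is assumed to vary like the other group.

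The replicate numbers are not stated to pair libraries, and the deviations of same-numbered libraries correlated at −0.181. With a replicate block 441 genes were up and 397 down (REF2 1.25, PTI1 0.75) and the call of each member was as without it, and with the numbers crossed, chosen after seeing the data, 441 and 398. SYC1 is limited by depth in Δsyc1, where 3 counts in all were read.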
